A study of Homo sapiens with 8 samples.

Results

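Gene expression in control cells of 2 lines labelled lung squamous cell carcinoma (LUSQ), EBC-1 and SK-MES-1, was compared with that of A549. A549 is a cell line of lung adenocarcinoma (LUAD). The comparison used 5 of the 8 arrays of the series and only their green (Cy3) channel, which held the control RNA of each array. There was 1 channel of EBC-1 and 1 of SK-MES-1, whose RNA is labelled both as mock and as not transfected. The other 3 channels held RNA of A549 cells labelled as control, with no genome editing. On the same arrays the red (Cy5) channel held RNA of the same line after transfection of *miR-150-3p* (EBC-1 and SK-MES-1) or after genome editing of *LOXL2* (A549), and the green values had been normalized against it. The labels do not say whether the 3 A549 channels came from separate cultures. EBC-1 and SK-MES-1 were grown in different media, and how A549 was grown is not given in the sources used here. A line, its medium, its handling as a control (with or without mock transfection) and its histology label therefore cannot be told apart.

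LUSQ and LUAD are the main forms of non-small cell lung cancer. LUSQ resembles the basal cells of stratified epithelium, which are kept by the transcription factor p63 and contain the basal keratins. LUAD resembles the secretory and alveolar cells of the distal lung, and many such tumors depend on the transcription factor NKX2-1. A549 is widely used as a LUAD line and is known for a permanently active NRF2 pathway, which drives genes of detoxification and antioxidant defence. EBC-1 is known for amplification of the *MET* gene.

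The 5 channels were of similar quality. Between 41.1% and 46.4% of the 60901 spots that are not controls were well above background in each of the 5 channels, and 0 spots were saturated. The 3 A549 channels were near copies of each other. At bright probes, whose log2 intensity was 8 or more, their log2 values differed with an SD of 0.083 to 0.092 (Pearson's r = 0.997 over probes). Between different lines the SD was 1.17 to 1.45. EBC-1 and SK-MES-1 differed from each other with an SD of 1.30, which is within the range of their distances from A549. The A549 channels were therefore averaged and counted as 1 line, and each value below is a log2 quantile-normalized intensity unless it is called a difference or a fold.

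The labels were first checked against the markers of both tumor types. The data did not show the basal cell pattern in the 2 lines labelled LUSQ. The basal keratin *KRT5* was 2.53 in EBC-1, 2.55 in SK-MES-1 and 2.53, 2.53 and 2.53 in the A549 channels, and it was not well above background in any channel. *TP63*, which encodes p63, was 4.48 in EBC-1, 5.27 in SK-MES-1 and 5.09, 4.28 and 4.52 in the A549 channels. It was well above background only in SK-MES-1 and in 1 A549 channel, and the groups overlapped. *KRT14*, the partner of *KRT5*, was 2.68 in EBC-1, 6.89 in SK-MES-1 and 4.19, 4.13 and 4.14 in the A549 channels, and *KRT17* was 3.62 in EBC-1, 6.66 in SK-MES-1 and 4.79, 3.26 and 2.77 in the A549 channels. Both passed the background in SK-MES-1 alone. *KRT6A* and the desmosomal cadherin *DSG3* were not well above background in any channel, and *TRIM29* was so in SK-MES-1 alone, at 4.96 against 4.33 to 4.83 in A549. *SOX2*, a lineage factor of LUSQ, was lower in both lines than in A549, with 7.60 in EBC-1, 6.47 in SK-MES-1 and 9.19, 9.20 and 9.13 in the A549 channels. Alveolar markers did not set A549 apart either. *NKX2-1* was at 2.46 to 2.65 in all channels, and *SFTPB*, a surfactant protein, at 2.78 to 4.02, all not well above background. *NAPSA*, a protease that processes surfactant, was 6.33 in EBC-1, 4.89 in SK-MES-1 and 5.99, 5.94 and 6.15 in the A549 channels, and the groups overlapped. *KRT7*, a keratin of simple epithelium, was bright everywhere, with 16.92 in EBC-1, 16.08 in SK-MES-1 and 17.43, 17.33 and 17.56 in the A549 channels. The 2 lines are therefore named below by their labels or by their own names, with no cell type drawn from them.

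**Figure D1:**
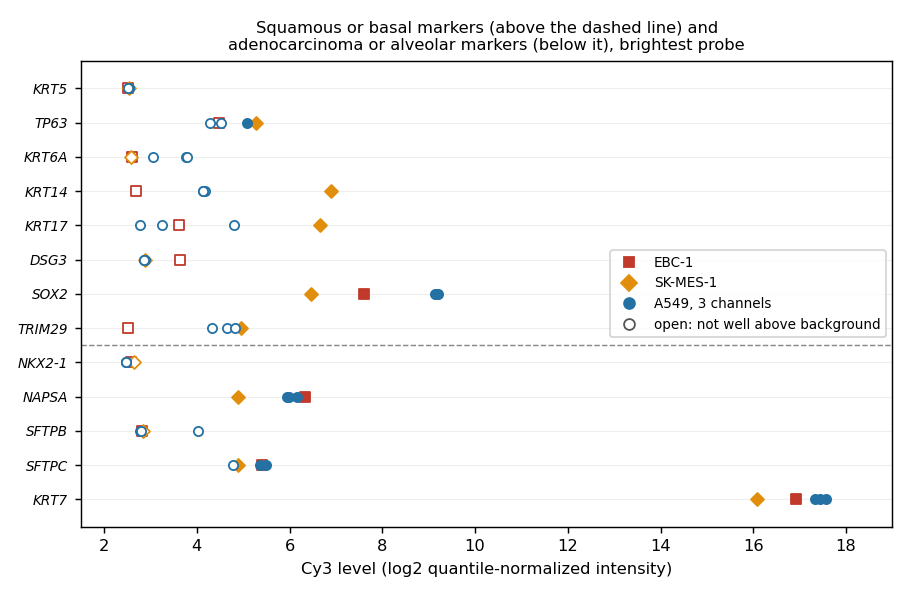
Cy3 level (log2 quantile-normalized intensity, horizontal axis) of 8 squamous or basal markers and 5 adenocarcinoma or alveolar markers in EBC-1, SK-MES-1 and the 3 A549 channels, 1 point per channel. Open points were not well above background. *KRT5*, *KRT6A*, *DSG3*, *NKX2-1* and *SFTPB* have only open points, and *SOX2* is lower in EBC-1 (7.60) and SK-MES-1 (6.47) than in A549 (9.13 to 9.20).

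After the filter on dim probes, 24991 probes and 14231 named genes were compared. A gene was represented by its brightest probe, and it was counted when each of the 2 lines differed from the A549 mean by at least 4-fold in the same direction. In all, 513 genes were at least 4-fold higher in both lines (3.60% of the genes) and 508 were at least 4-fold lower (3.57%). Of these, 269 and 266 were not well above background on the dim side, where only a bound of the fold is known, and the bound was under 4-fold in 69 and 118 of them. This bound is on the mean of the 2 lines, not on each line. Taken alone, EBC-1 was at least 4-fold higher than A549 at 1010 genes (7.10%) and lower at 1360 (9.56%). SK-MES-1 was higher at 886 genes (6.23%) and lower at 919 (6.46%). A gene above background in only 1 of the 2 lines, and not in all A549 channels, did not pass the filter. Such genes are missing from these counts of higher genes. With SK-MES-1 left out of the filter, EBC-1 was higher at 1273 genes and lower at 1361. With EBC-1 left out, SK-MES-1 was higher at 1377 and lower at 922. The lines differed from A549 in opposite directions by at least 4-fold at 91 genes, and 11168 genes were within 4-fold of A549 in both. Both lines lay above all 3 A549 channels at 29.8% of the genes and below them at 34.0%.

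The test over lines had 2 lines against 1 and called no probe. By limma with Benjamini-Hochberg adjustment over all probes, 0 of 24991 probes passed at 0.05 (0%), 1944 had an unadjusted p under 0.05, and the lowest adjusted p was 0.305. When the 5 channels were kept separate with the line as a random block, limma called 122 probes higher (0.488%) and 214 lower (0.856%), or 96 genes higher (0.675%) and 129 lower (0.906%). The correlation of 0.964 in that fit rests on the spread of the A549 channels and on 1 difference between lines, that of EBC-1 from SK-MES-1. A549 was the single line with more than 1 channel. Treating the 5 channels as independent samples gave 3043 and 3970 probes, which measures mainly how closely the A549 channels repeat. For this reason "higher" and "lower" below give values, and adjusted p-values named "with the line as a block" come from the second fit. The near-copy A549 channels add to its 3 residual degrees of freedom. Where a gene was not well above background on 1 side, that fit also used values near the floor. Its p-values are therefore not evidence that a gene differs between lines of the 2 labels. In lysates of whole cultures, fewer cells that express a gene and less RNA per cell cannot be told apart.

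**Figure D2:**
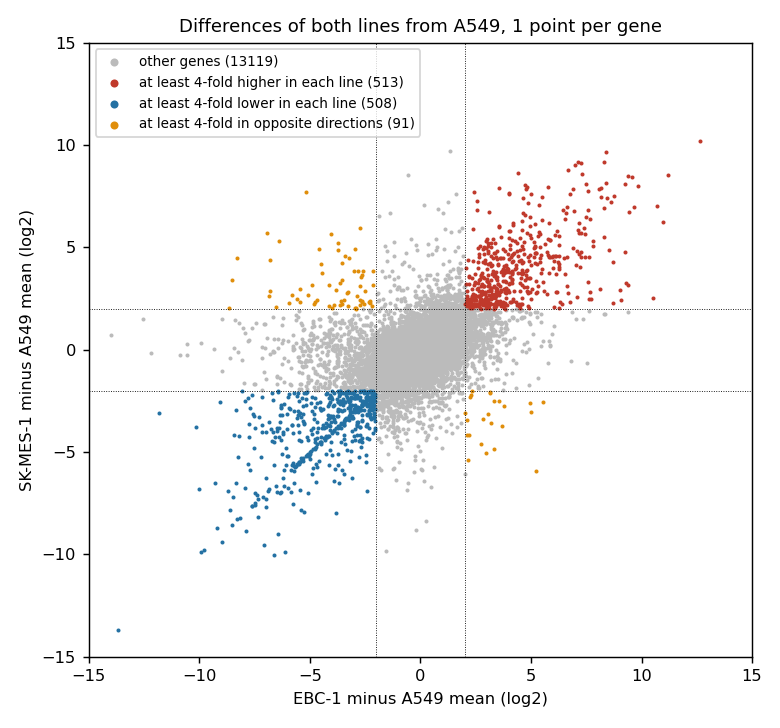
Log2 difference from the A549 mean in EBC-1 (horizontal axis) and in SK-MES-1 (vertical axis), 1 point for each of the 14231 genes, with dotted lines at a 4-fold difference. The 513 genes at least 4-fold higher and the 508 at least 4-fold lower in each line lie in the outer corners of the upper right and lower left, and 91 genes lie in the other corners.

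Several genes of the epithelial surface and of adhesion were far higher in both lines. *CLDN4*, a claudin of tight junctions, was 16.33 in EBC-1, 14.77 in SK-MES-1 and 8.96, 9.10 and 9.11 in the A549 channels. The difference was 6.49 ± 0.93 (SE), or 90.0-fold, and both lines stood far above A549. *SERPINB5*, which encodes maspin and is typical of basal and squamous cells, was 12.04 in EBC-1, 10.92 in SK-MES-1 and 2.49, 2.49 and 2.49 in the A549 channels, at least 101-fold higher. *S100A2*, a calcium-binding protein of basal cells, was 12.01 in EBC-1, 16.30 in SK-MES-1 and 9.42, 9.43 and 9.51 in the A549 channels. SK-MES-1 was highest and EBC-1 in between, with no overlap with A549. *LAMB3* and *LAMA3* encode chains of laminin-332, the ligand that anchors basal cells to their basement membrane. *LAMB3* was 15.41 in EBC-1, 16.02 in SK-MES-1 and 10.39, 10.43 and 10.46 in the A549 channels, a difference of 5.28 ± 0.65 (SE). *LAMA3* was 13.10 in EBC-1, 10.82 in SK-MES-1 and 10.15, 10.26 and 10.15 in the A549 channels. Both chains were above A549 in both lines, although *LAMA3* was within 4-fold in SK-MES-1.

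Of the 16 tested genes of hemidesmosomes and the basement membrane, 2 were at least 4-fold higher and 0 lower, where 3.60% and 3.57% of all genes were, with a median difference of 0.62 against -0.06 over all genes. The integrin subunits *ITGA6* (difference 1.04), *ITGB4* (0.65) and *ITGA3* (1.65) were higher by smaller steps, and *ITGB1* (-1.28) was lower. Of the 25 genes on the list of squamous and basal markers, 7 passed the filter and 10 were not well above background in any of the 5 channels. Of the 7, 2 were at least 4-fold higher, *SERPINB5* and *S100A2*, and 0 lower, against 3.60% and 3.57% of all genes. Both lines were above all A549 channels at 4 and below them at 2, against 29.8% and 34.0% of all genes. The median difference was 1.54. It was 0.26, with 1 gene at least 4-fold higher, when all 5 channels had to be above background. Of 11 tested genes of the cornified envelope and keratinocyte differentiation, 2 were at least 4-fold higher, against 3.60% of all genes. They were the desmocollin *DSC2* (3.66) and periplakin, *PPL* (3.06). The esophageal keratin *KRT4* was at least 4-fold lower (-3.80, bound of 13.9-fold), against 3.57% of all genes. Of 30 genes named on the array, 19 did not pass the filter. *SPRR1B*, *SPRR2A*, *SERPINB3*, *SERPINB4*, *PI3*, *S100A8* and *S100A9* were above background in EBC-1 alone, and *SPRR3* and *KRT16* in SK-MES-1 alone. With SK-MES-1 left out of the filter, 9 genes were at least 4-fold higher in EBC-1 and 3 lower (median 2.08). Over all 14605 genes, 1273 and 1361 were.

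Among the genes well above background in all 5 channels, ranked by the smaller of the 2 line differences, *ADIRF*, a regulator of adipogenesis, came first. It was 13.67 in EBC-1, 13.38 in SK-MES-1 and 5.48, 5.65 and 5.36 in the A549 channels, a difference of 8.03 ± 0.61 (SE) or 261-fold. *RAC2*, a small GTPase best known from blood cells, was 14.18 in EBC-1, 14.37 in SK-MES-1 and 6.81, 6.51 and 6.51 in the A549 channels, or 203-fold higher. *G0S2*, an inhibitor of triglyceride breakdown, was 15.05 in EBC-1, 14.11 in SK-MES-1 and 7.88, 7.85 and 7.95 in the A549 channels. For these 3 genes the 2 lines were close to each other, and the distance to A549 was many times the spread of the A549 channels. With the line as a block, their adjusted p-values were 0.0173, 0.0231 and 0.015. Ranked below these and *CLDN4*, beside *LAMB3* and *ISG15*, were the long noncoding RNA *MANCR* (difference 5.84), the peptidase *ERAP2* (5.57), *SPOCD1* (5.21), *SECTM1* (5.05), calretinin, *CALB2* (5.24), and *STING1* (4.97), the adaptor of cytosolic DNA sensing. Their adjusted p with the line as a block lay between 0.0183 for *STING1* and 0.306 for *MANCR*. Of the genes that were not well above background in A549, *RAMP1*, a subunit of the calcitonin gene-related peptide receptor, had a bound of 323-fold. The linker histone *H1-1* had a bound of 194-fold, *WFDC2* of 187-fold, the adhesion molecule *ICAM2* of 149-fold, *CD163L1* of 135-fold, *MAL2* of 121-fold and the metallothionein *MT1M* of 119.5-fold. Metallothionein genes are near copies, so the probe of *MT1M* may also bind others.

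Interferon response and MHC genes formed the list with the most genes higher in both lines. Interferons bind their receptors and activate transcription factors such as IRF9, which induce antiviral effectors through the interferon-stimulated response element (ISRE) in their promoters, and MHC class I molecules show peptides to T cells. Of 33 tested genes, 16 were at least 4-fold higher in both lines and 0 lower, where 3.60% of all genes were higher. Both lines were above all A549 channels at 29 of the 33, against 29.8% of all genes. The median difference was 2.77, and 2.64 with the genes dim in A549 set to their bound, against -0.06 over all genes. By line it was 3.32 in EBC-1, where 24 genes were at least 4-fold higher, against 7.10% of all genes. In SK-MES-1 it was 1.99, and 16 genes were at least 4-fold higher, against 6.23% of all genes. With the line as a block, 5 of the 33 genes were called higher and 0 lower, against 0.675% and 0.906% of all genes. With normexp background correction 6 genes were at least 4-fold higher and the median was 1.15, and 8 were when a probe had to be well above background in all 5 channels.

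Promoters of 5 of these genes are shown because the genes were at least 4-fold higher in both lines and their promoters hold the letters of an ISRE. The sequences are from RefSeq, build GRCh38.p14, and give the 250 bases before the start of the gene, 5′ to 3′ along the gene. The capitals mark a pair of GAAA with any 2 bases between them, on either strand, and overlapping matches run together.
*IFI44*, chr1:78649539-78649788, forward strand: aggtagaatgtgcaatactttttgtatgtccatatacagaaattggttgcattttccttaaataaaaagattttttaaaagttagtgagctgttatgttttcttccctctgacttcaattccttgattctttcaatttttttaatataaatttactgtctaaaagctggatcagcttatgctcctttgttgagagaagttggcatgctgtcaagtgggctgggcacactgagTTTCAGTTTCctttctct
*IFI44L*, chr1:78620198-78620447, forward strand: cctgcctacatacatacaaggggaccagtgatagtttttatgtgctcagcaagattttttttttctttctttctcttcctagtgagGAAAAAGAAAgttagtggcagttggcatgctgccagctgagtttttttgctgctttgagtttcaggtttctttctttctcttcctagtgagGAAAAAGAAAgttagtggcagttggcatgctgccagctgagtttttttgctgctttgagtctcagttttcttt
*ISG15*, chr1:1013247-1013496, forward strand: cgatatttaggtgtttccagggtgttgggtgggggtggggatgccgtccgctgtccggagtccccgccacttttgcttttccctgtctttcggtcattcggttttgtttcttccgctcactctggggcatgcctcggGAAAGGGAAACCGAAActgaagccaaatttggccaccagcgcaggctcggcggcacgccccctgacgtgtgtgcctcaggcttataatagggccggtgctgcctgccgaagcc
*IFI6*, chr1:27672193-27672442, reverse strand: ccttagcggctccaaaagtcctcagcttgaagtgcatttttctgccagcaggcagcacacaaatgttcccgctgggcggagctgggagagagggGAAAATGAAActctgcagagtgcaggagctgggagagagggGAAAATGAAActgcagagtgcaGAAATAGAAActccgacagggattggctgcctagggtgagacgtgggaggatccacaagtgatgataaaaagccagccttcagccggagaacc
*IFIH1*, chr2:162318685-162318934, reverse strand: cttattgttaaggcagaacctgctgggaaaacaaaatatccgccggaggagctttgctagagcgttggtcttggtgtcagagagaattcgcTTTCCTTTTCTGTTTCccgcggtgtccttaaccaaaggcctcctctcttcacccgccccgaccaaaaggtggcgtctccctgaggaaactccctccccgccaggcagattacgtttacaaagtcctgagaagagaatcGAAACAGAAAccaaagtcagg
The letters occurred before 3.07% of the 27305 genes with a promoter in the table. Only 22 of the 33 tested members had a promoter there, too few to read a share for the list. Among those 22, the letters were found in 6 of 9 genes that were at least 4-fold higher and in 7 of 13 others. A match describes the sequence and does not show binding.

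*IFI44*, an interferon-induced protein of antiviral response, was 10.87 in EBC-1, 10.66 in SK-MES-1 and 2.49, 2.50 and 2.49 in the A549 channels. It was not well above background in A549, a bound of 61.1-fold (adjusted p = 0.00849 with the line as a block), and its neighbor *IFI44L* was 10.44 in EBC-1, 9.18 in SK-MES-1 and 2.80, 2.79 and 2.77 in the A549 channels. *ISG15*, a ubiquitin-like protein that is attached to others, was 14.43 in EBC-1, 13.93 in SK-MES-1 and 9.25, 9.26 and 9.14 in the A549 channels, a difference of 4.96 ± 0.63 (SE) or 31.2-fold. *MX1*, a GTPase that blocks viral replication, was 10.60 in EBC-1, 10.29 in SK-MES-1 and 5.67, 5.61 and 5.65 in the A549 channels. These genes were higher in both lines by similar amounts. *IFI44L* too was not well above background in A549. *IFI6* was 12.67 in EBC-1, 10.21 in SK-MES-1 and 7.49, 7.38 and 7.45 in the A549 channels, and the RNA sensor *IFIH1* was 8.28 in EBC-1, 7.83 in SK-MES-1 and 5.72, 5.82 and 5.18 in the A549 channels, both without overlap. The antiviral genes *OASL* (difference 5.25), *IFIT2* (3.27), *MX2* (6.32, bound of 17.9-fold) and *OAS2* (3.83, bound of 6.24-fold) were also at least 4-fold higher in both. Other members were higher mainly in EBC-1. *IFITM1*, a membrane protein that hinders viral entry, was 11.98 in EBC-1, 6.95 in SK-MES-1 and 5.39, 4.63 and 5.31 in the A549 channels, and *IFIT1* was 11.89 in EBC-1, 8.97 in SK-MES-1 and 7.04, 7.29 and 7.07 in the A549 channels. *OAS1* was 9.46 in EBC-1, 6.20 in SK-MES-1 and 7.77, 7.44 and 7.56 in the A549 channels, so that SK-MES-1 was below A549.

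The MHC class I genes *HLA-C* and *HLA-B* were higher in both lines, while *HLA-E* differed little (0.33). *HLA-C* was 16.53 in EBC-1, 15.60 in SK-MES-1 and 11.38, 11.41 and 11.28 in the A549 channels, a difference of 4.71 ± 0.73 (SE), and *HLA-B* was 14.68 in EBC-1, 13.58 in SK-MES-1 and 11.33, 11.34 and 11.40 in the A549 channels. The HLA genes are near-identical and vary between people, so their probes may bind alleles unequally and each other's transcripts. *B2M*, the shared light chain, was 16.05 in EBC-1, 14.03 in SK-MES-1 and 12.68, 12.67 and 12.70 in the A549 channels. EBC-1 was highest, SK-MES-1 in between and A549 lowest. The MHC class II gene *HLA-DRA* was 10.08 in EBC-1, 4.93 in SK-MES-1 and 2.46, 2.47 and 2.48 in the A549 channels, and its regulator *CIITA* was 9.19 in EBC-1, 5.70 in SK-MES-1 and 2.58, 2.58 and 2.57 in the A549 channels. Neither was well above background in A549, and EBC-1 exceeded SK-MES-1 for both. The lowest values of probes well above background were 4.68 in SK-MES-1 and 4.78 to 4.89 in A549. In SK-MES-1 both genes, at 4.93 and 5.70, were close to these, so a 4-fold difference from A549 is not shown for that line. *CD274*, which encodes PD-L1, was 8.02 in EBC-1, 7.32 in SK-MES-1 and 4.61, 4.74 and 5.01 in the A549 channels, at least 6.94-fold higher in the 2 lines.

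**Figure D3:**
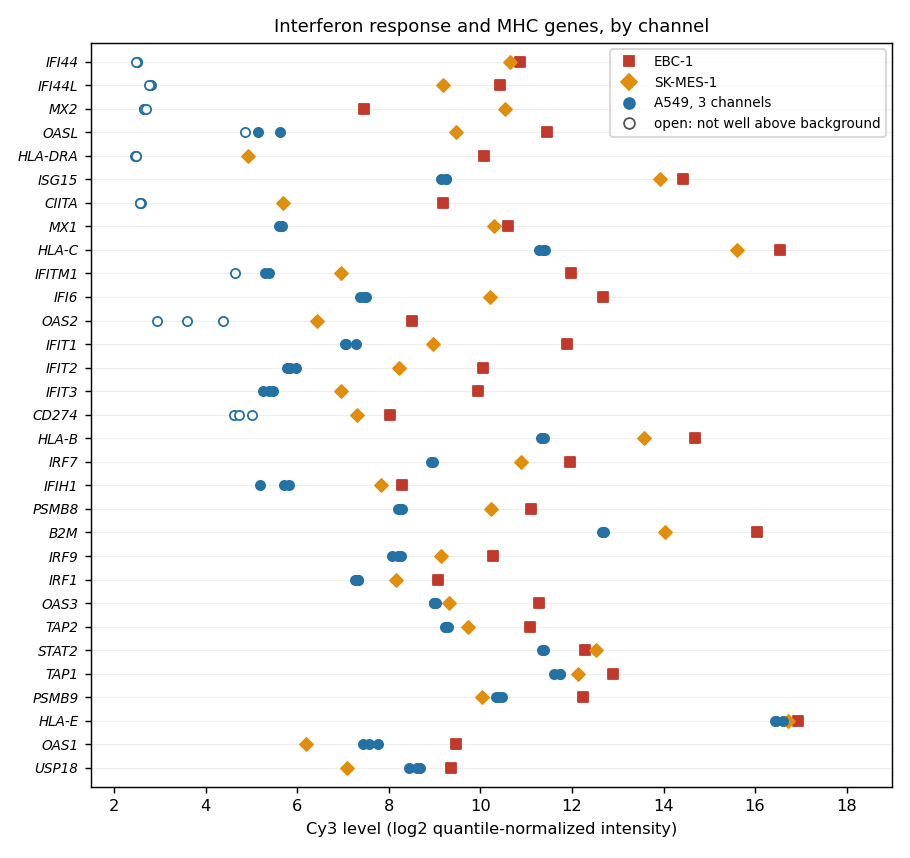
Cy3 level (log2 quantile-normalized intensity, horizontal axis) of 31 of the 33 tested interferon response and MHC genes in EBC-1, SK-MES-1 and the 3 A549 channels, ordered by their mean difference. Open points were not well above background. In 28 of the 31 genes shown both lines lie to the right of A549.

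Inflammatory cytokines separated the lines from each other as well as from A549. Of 16 tested genes, 4 were at least 4-fold higher in both lines and 1 was lower, against 3.60% and 3.57% of all genes, and the median difference was 3.00 for EBC-1 and 0.11 for SK-MES-1. *IL1B*, a central inflammatory cytokine, was 11.36 in EBC-1, 9.12 in SK-MES-1 and 4.22, 3.79 and 4.86 in the A549 channels, a bound of 42.6-fold. *CSF2*, which encodes GM-CSF, was 12.13 in EBC-1, 7.66 in SK-MES-1 and 2.63, 2.63 and 3.40 in the A549 channels, and *IL6* was 9.51 in EBC-1, 8.35 in SK-MES-1 and 3.25, 3.63 and 4.34 in the A549 channels. A549 was not well above background for these 3 genes, nor for *IL1A* (difference 4.31, bound of 3.92-fold). With normexp, or with all 5 channels required above background, 0 genes of the list were at least 4-fold higher or lower. The neutrophil chemokines *CXCL1* and *CXCL2* were high in EBC-1 only. *CXCL1* was 14.15 in EBC-1, 8.87 in SK-MES-1 and 9.97 to 10.10 in A549, and *CXCL2* differed from A549 by 3.38 in EBC-1 and by -1.43 in SK-MES-1, so that SK-MES-1 lay below A549. *CCL2* and *CXCL5* had the reverse order. *CXCL5* was 6.87 in EBC-1, 12.05 in SK-MES-1 and 12.41, 12.37 and 12.41 in the A549 channels, while *CCL2* differed from A549 by -0.07 in SK-MES-1 and was not well above background in EBC-1. *PTGS2*, which encodes cyclooxygenase-2, was 5.24 in EBC-1, 2.60 in SK-MES-1 and 7.63, 7.84 and 7.69 in the A549 channels, and was not well above background in the 2 lines.

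NRF2 target genes were mostly higher in A549. NRF2 is held back by KEAP1 until oxidants release it, and it then binds the antioxidant response element (ARE) of genes that make glutathione, reduce quinones and carbonyls and export conjugates. All 38 genes that could be named on the array passed the filter. Of these, 0 were at least 4-fold higher in both lines and 5 were at least 4-fold lower, where 3.57% of all genes were lower. Both lines were below all A549 channels at 27 of the 38, against 34.0% of all genes, and above them at 1. The median difference was -1.24, with -1.87 for EBC-1 and -0.37 for SK-MES-1. In EBC-1 17 genes were at least 4-fold lower than in A549, and in SK-MES-1 6 were, against 9.56% and 6.46% of all genes. With the line as a block, 3 genes were called lower, against 0.906% of all genes. When all 5 channels had to be above background, 3 genes were at least 4-fold lower.

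*AKR1B10*, an aldo-keto reductase, was 9.24 in EBC-1, 11.07 in SK-MES-1 and 17.65, 17.57 and 17.47 in the A549 channels, a difference of -7.42 ± 1.03 (SE), so that A549 was 171-fold higher. Its near copy *AKR1B15* was 8.09 in EBC-1, 9.93 in SK-MES-1 and 16.93, 16.75 and 16.75 in the A549 channels, and probes of these genes may bind both. *GPX2*, a glutathione peroxidase, was 4.87 in EBC-1, 4.49 in SK-MES-1 and 13.87, 13.88 and 13.85 in the A549 channels. It was not well above background in the 2 lines, and A549 was at least 454-fold higher (adjusted p = 0.00849 with the line as a block). Its promoter is shown because the gene had the lowest difference of the list, with TGACNNNGC, the core of an ARE, in capitals on the opposite strand.
*GPX2*, chr14:64942746-64942995, reverse strand: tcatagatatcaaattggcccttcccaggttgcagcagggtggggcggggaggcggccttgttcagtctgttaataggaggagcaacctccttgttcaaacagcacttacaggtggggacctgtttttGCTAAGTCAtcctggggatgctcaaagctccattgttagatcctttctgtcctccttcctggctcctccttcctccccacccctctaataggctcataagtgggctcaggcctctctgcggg
These letters occurred before 11% of the 27305 genes, and 27 of the 38 members had a promoter in the table, too few to read a share for the list. Among those 27, the letters were found in 1 of 3 genes that were at least 4-fold lower and in 7 of 24 others. The promoters of *ABCC2* and *AKR1B1* did not hold them, and a match does not show binding. *ABCC2*, an export pump for conjugates, was 7.07 in EBC-1, 5.96 in SK-MES-1 and 12.95, 12.94 and 12.89 in the A549 channels, and *AKR1B1* was 13.40 in EBC-1, 12.49 in SK-MES-1 and 16.96, 16.81 and 16.84 in the A549 channels. Both were lower in the 2 lines, with no overlap.

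Other NRF2 targets showed a far lower level for EBC-1 than for SK-MES-1. *AKR1C1* was 8.90 in EBC-1, 14.91 in SK-MES-1 and 16.03, 15.94 and 15.97 in the A549 channels, and *UGDH*, which makes UDP-glucuronate, was 9.05 in EBC-1, 12.63 in SK-MES-1 and 13.31, 13.45 and 13.40 in the A549 channels. *ALDH3A1*, an aldehyde dehydrogenase, was 3.11 in EBC-1, 11.84 in SK-MES-1 and 14.96, 14.96 and 14.92 in the A549 channels, and *NR0B1* was 3.13 in EBC-1, 13.71 in SK-MES-1 and 13.98, 13.97 and 14.01 in the A549 channels, both not well above background in EBC-1. *ALDH3A1* was at least 4-fold lower in both lines, and *NR0B1* in SK-MES-1 was close to A549. *GSTM3* was 2.85 in EBC-1, 14.80 in SK-MES-1 and 11.37, 11.37 and 11.37 in the A549 channels, so that SK-MES-1 was above A549 and EBC-1 was not well above background. The AKR1C genes are near copies, and their probes may bind each other's transcripts. The widely used reporter genes of the pathway differed less. *NQO1* was 9.51 in EBC-1, 10.69 in SK-MES-1 and 11.45, 11.34 and 11.32 in the A549 channels, and *HMOX1*, heme oxygenase, was 12.07 in EBC-1, 12.90 in SK-MES-1 and 14.64, 14.56 and 14.57 in the A549 channels. *GCLC*, the catalytic subunit of glutathione synthesis, was 11.05 in EBC-1, 12.93 in SK-MES-1 and 13.31, 13.32 and 13.27 in the A549 channels, while its partner *GCLM* was 12.20 in EBC-1, 12.51 in SK-MES-1 and 12.44, 12.36 and 12.39 in the A549 channels and overlapped. *SLC7A11*, the cystine importer, was 11.19 in EBC-1, 13.61 in SK-MES-1 and 13.21, 13.15 and 13.22 in the A549 channels. *FTH1*, the ferritin heavy chain, was the gene above all A549 channels in both lines (difference 0.59).

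The list of liver-type plasma proteins and metabolic enzymes had the lowest median. Not all its members are particular to liver, and the median depended on genes that were dim in the 2 lines. Of 18 tested genes, 10 were at least 4-fold lower in both lines and 1 was higher, against 3.57% and 3.60% of all genes, and both lines were below all A549 channels at 11, against 34.0% of all genes. The median difference was -3.40, but -2.15 with the 8 genes that were dim in the lines set to their bound. It was 0.47, with 0 genes at least 4-fold lower, when a probe had to be well above background in all 5 channels. The median was -0.56 with normexp (3 genes at least 4-fold lower), -0.26 with no filter on dim probes and -0.47 in the Cy5 channels. With the line as a block, 7 genes were called lower, against 0.906% of all genes. *ALDH1A1*, which oxidizes retinal, was 2.78 in EBC-1, 2.77 in SK-MES-1 and 16.45, 16.36 and 16.52 in the A549 channels. It was not well above background in the 2 lines, and A549 was at least 2706-fold higher. *CYP24A1*, which degrades vitamin D, was 5.30 in EBC-1, 2.82 in SK-MES-1 and 12.39, 12.30 and 12.37 in the A549 channels, a bound of 159-fold. The fibrinogen chains *FGA*, *FGB* and *FGG* had differences of -2.78, -5.09 and -5.69, and *FGG* was 2.96 in EBC-1, 4.11 in SK-MES-1 and 9.25, 9.16 and 9.26 in the A549 channels. *APOH* was 3.51 in EBC-1, 2.87 in SK-MES-1 and 9.93, 9.77 and 9.93 in the A549 channels, and *FGL1*, a fibrinogen-like hepatokine, was 2.66 in EBC-1, 2.63 in SK-MES-1 and 10.19, 10.28 and 10.33 in the A549 channels. In each of these 7 genes A549 was clearly above background and both lines were not. The gene at least 4-fold higher was *SERPINA1*, which encodes alpha-1 antitrypsin, with 14.09 in EBC-1, 12.92 in SK-MES-1 and 4.37, 4.82 and 5.28 in the A549 channels. A549 passed the background in 1 channel only. *CFB*, of the complement system, was 11.54 in EBC-1, 5.12 in SK-MES-1 and 5.95, 5.87 and 5.54 in the A549 channels and was high in EBC-1 only.

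**Figure D4:**
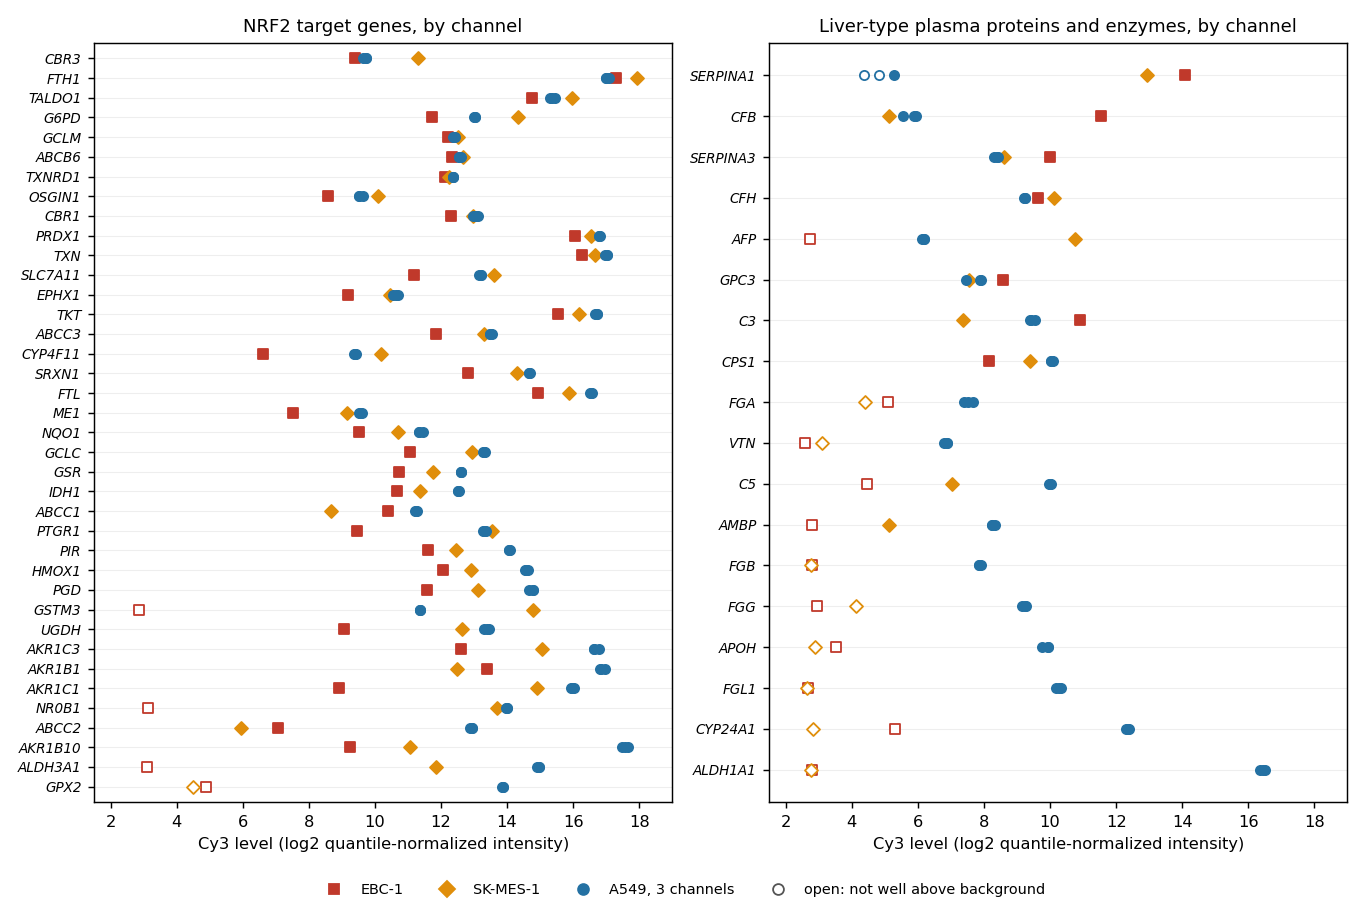
Cy3 level (log2 quantile-normalized intensity, horizontal axes) of the 38 tested NRF2 target genes (left) and the 18 tested genes of liver-type plasma proteins and enzymes (right) in EBC-1, SK-MES-1 and the 3 A549 channels, ordered by their mean difference. Open points were not well above background. In 27 NRF2 targets and 11 liver-type genes both lines lie to the left of A549, and *SERPINA1* lies to its right.

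Other genes that were highest in A549 came from several classes. *S100P*, a calcium-binding protein of many adenocarcinomas, was 5.86 in EBC-1, 6.67 in SK-MES-1 and 14.48, 14.46 and 14.47 in the A549 channels, so that A549 was 295-fold higher (adjusted p = 0.00849 with the line as a block). *RSPO3*, an enhancer of Wnt signaling, was 6.49 in EBC-1, 6.38 in SK-MES-1 and 13.04, 13.03 and 13.03 in the A549 channels, and *FXYD2*, a regulator of the sodium pump, was 2.53 in EBC-1, 2.47 in SK-MES-1 and 11.03, 11.05 and 11.06 in the A549 channels. The brightest probe of *FXYD2* was not well above background in the 2 lines (bound of 64.2-fold), and its other probe had 6.24 and 5.74 against 7.45 to 7.60. *TESC* was 9.14 in EBC-1, 5.40 in SK-MES-1 and 15.24, 15.30 and 15.33 in the A549 channels, *APOC1*, an apolipoprotein, was 6.44 in EBC-1, 6.64 in SK-MES-1 and 12.19, 12.14 and 12.21 in the A549 channels, and *EDN1*, endothelin, was 8.40 in EBC-1, 7.47 in SK-MES-1 and 13.26, 13.23 and 13.24 in the A549 channels. For all of these the lines lay below A549, and only for *TESC* were they more than 3 log2 units apart. The noncoding RNA *SNAR-G1* had a difference of -5.14. The probes of *LINC00173* disagreed. Its brightest was 4.41 in EBC-1, 4.32 in SK-MES-1 and 9.79, 9.95 and 9.93 in the A549 channels, not well above background in the lines (bound of 28.8-fold), while another was 7.04 and 7.10 in the lines against 6.72 to 7.06 in A549. Of the genes not well above background in the 2 lines, *CPLX2* had a bound of 161-fold, *LINC00473* of 154-fold, *INSL4* of 110.2-fold, *GRB14* of 108-fold and the transporter *SLC16A4* of 98.9-fold.

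Keratins of simple epithelium were abundant in all lines and mostly higher in A549. Of 6 tested genes on this list, 0 were at least 4-fold higher and 1 was at least 4-fold lower, against 3.60% and 3.57% of all genes. The lower gene was *KRT81*, which is a hair keratin. It was 12.94 in EBC-1, 12.84 in SK-MES-1 and 18.03, 18.03 and 18.03 in the A549 channels, a difference of -5.14 ± 0.59 (SE). Quantile normalization gives probes of equal rank the same value, so the equal A549 values (SD 1.22e-05) show no measured spread. The partners *KRT8* and *KRT18* were lower mainly in SK-MES-1. *KRT8* was 14.43 and 12.11 in EBC-1 and SK-MES-1 against 15.02, 15.03 and 15.08 in A549. *KRT18* was 16.62 and 15.07 in EBC-1 and SK-MES-1 against 17.84, 17.75 and 17.67 in A549. Another probe of *KRT8* was 11.25 and 10.83 against 11.10 to 11.18. *KRT19* was the exception, with 17.51 in EBC-1, 16.41 in SK-MES-1 and 14.66, 14.66 and 14.67 in the A549 channels, and was higher in both lines. Of 19 tested alveolar, club and adenocarcinoma markers, 2 were at least 4-fold higher and 2 lower, against 3.60% and 3.57% of all genes. Their median difference was 0.03. *GATA6*, a transcription factor of the distal lung, was 10.05 in EBC-1, 10.81 in SK-MES-1 and 7.27, 7.32 and 7.43 in the A549 channels, and *LAMP3*, of lamellar bodies, was higher with a bound of 5.71-fold. *CEACAM6*, a surface antigen of adenocarcinoma, was 2.53 in EBC-1, 2.55 in SK-MES-1 and 10.85, 10.81 and 10.76 in the A549 channels, not well above background in the 2 lines. The forkhead factor *FOXA2* was lower in both lines by smaller steps (difference -1.20), and *FOXA1* was 9.33 in EBC-1, 7.04 in SK-MES-1 and 8.33, 8.27 and 8.33 in the A549 channels, above A549 in EBC-1 and below it in SK-MES-1. Of 8 tested neuroendocrine genes, 0 were at least 4-fold higher and 2 lower, against 3.60% and 3.57% of all genes. The 2 were *CHGA* (bound of 7.87-fold) and *DDC* (16.8-fold), while *NEUROD1* was not well above background in any channel. *UCHL1*, a ubiquitin hydrolase, was 2.62 in EBC-1, 17.33 in SK-MES-1 and 16.55, 16.64 and 16.66 in the A549 channels and was not well above background in EBC-1.

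Targets of p53 were mostly lower in the 2 lines, most of them within 4-fold. p53 is a transcription factor that stops the cell cycle after DNA damage. Of 28 tested targets, 1 was at least 4-fold higher and 2 were at least 4-fold lower, against 3.60% and 3.57% of all genes. Both lines were below all A549 channels at 22, against 34.0% of all genes, and the median difference was -0.86. With normexp, or with all 5 channels required above background, 0 were at least 4-fold lower. *MDM2*, the ubiquitin ligase that degrades p53, was 7.67 in EBC-1, 7.81 in SK-MES-1 and 8.98, 9.07 and 9.05 in the A549 channels, and *FDXR* was 12.13 in EBC-1, 13.01 in SK-MES-1 and 14.53, 14.52 and 14.54 in the A549 channels. *BTG2* was 7.08 in EBC-1, 8.01 in SK-MES-1 and 9.73, 9.77 and 9.68 in the A549 channels, *TP53I3* was 12.62 in EBC-1, 11.01 in SK-MES-1 and 14.38, 14.37 and 14.35 in the A549 channels, and *BAX*, a mediator of apoptosis, was 13.06 in EBC-1, 12.40 in SK-MES-1 and 13.51, 13.53 and 13.52 in the A549 channels. All 5 were below A549 in both lines. The 2 genes at least 4-fold lower, the receptor *EDA2R* (bound of 13.7-fold) and *SPATA18* (bound of 3.42-fold), were not well above background in the lines. *CDKN1A*, which encodes p21, went the other way by a small step, with 7.63 in EBC-1, 7.73 in SK-MES-1 and 7.20, 7.05 and 6.93 in the A549 channels, and *CD82*, a tetraspanin, was 11.75 in EBC-1, 12.73 in SK-MES-1 and 7.32, 7.26 and 7.18 in the A549 channels, a difference of 4.99 ± 0.75 (SE).

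Regulators of G1 phase differed little. Of 20 tested genes, 1 was at least 4-fold higher and 0 lower, against 3.60% and 3.57% of all genes, and the median difference was 0.26. *CDKN1C*, which encodes the cell cycle inhibitor p57, was 10.92 in EBC-1, 10.91 in SK-MES-1 and 7.11, 6.80 and 7.06 in the A549 channels, nearly the same in both lines. *RB1* was 10.01 in EBC-1, 10.07 in SK-MES-1 and 10.71, 10.68 and 10.69 in the A549 channels, slightly lower in both lines. *CCNE1*, cyclin E1, was 11.07 in EBC-1, 11.83 in SK-MES-1 and 12.62, 12.60 and 12.65 in the A549 channels, and *CCND1*, cyclin D1, was 11.05 in EBC-1, 11.68 in SK-MES-1 and 10.98, 10.95 and 11.03 in the A549 channels. A549 is known to lack the 9p21 locus with *CDKN2A* and *MTAP*, and their probes disagreed. The brightest probe of *MTAP* was lower in the lines, with 8.57 in EBC-1, 8.54 in SK-MES-1 and 9.92, 9.88 and 9.92 in the A549 channels. The other 2 probes were 9.33 and 9.13 in EBC-1 and SK-MES-1 against 2.85 to 2.86 in A549, and 9.80 and 10.35 against 2.54 to 2.55, not well above background in A549. The brightest probe of *CDKN2A* was 11.35 in EBC-1, 8.84 in SK-MES-1 and 9.65, 9.54 and 9.44 in the A549 channels. Its other probe was 8.78 for EBC-1 and 3.19 for SK-MES-1 against 3.39 to 3.65 in A549, well above background in EBC-1 alone.

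The region 3q26 to 3q28 is often gained in LUSQ. Of its 21 tested genes, 1 was at least 4-fold higher and 0 lower, against 3.60% and 3.57% of all genes, and the median difference was 0.16. *MECOM*, a transcription factor in this region, was 9.18 in EBC-1, 9.56 in SK-MES-1 and 2.72, 2.73 and 2.74 in the A549 channels, at least 23.2-fold higher than in A549 (adjusted p = 0.00849 with the line as a block). *PSMD2* (difference 1.17), *EIF4G1* (1.06) and *DVL3* (1.02) were higher by smaller steps. *PIK3CA* (-0.12), *ECT2* (-1.87) and *SOX2* (-2.14) were lower.

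Of 27 tested receptor tyrosine kinases and ligands, 3 were at least 4-fold higher and 1 lower, against 3.60% and 3.57% of all genes. The median difference was 0.50. *MET*, the receptor of hepatocyte growth factor, was 16.80 in EBC-1, 13.99 in SK-MES-1 and 14.58, 14.74 and 14.75 in the A549 channels, highest in EBC-1 and lowest in SK-MES-1. *EGFR* was 9.50 in EBC-1, 10.14 in SK-MES-1 and 9.60, 9.37 and 9.38 in the A549 channels, with overlap. *HBEGF*, a ligand of EGFR, was 11.30 in EBC-1, 7.94 in SK-MES-1 and 4.90, 5.16 and 5.31 in the A549 channels, and the ephrin receptor *EPHB2* was 11.95 in EBC-1, 12.28 in SK-MES-1 and 9.74, 9.93 and 9.88 in the A549 channels, both higher in the 2 lines, as was *PTK7* (difference 2.17, bound of 3.17-fold). For *HBEGF*, A549 passed the background in 1 channel only. *NRG1*, a ligand of ERBB3, differed from A549 by -2.71 in EBC-1 and by -3.77 in SK-MES-1. *FGFR1*, which is amplified in part of LUSQ, was 7.43 in EBC-1, 10.94 in SK-MES-1 and 10.65, 10.71 and 10.68 in the A549 channels and was low in EBC-1 only.

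Genes of epithelial junctions and of mesenchymal cells differed between the 2 lines. In epithelial to mesenchymal transition, cells lose cadherin-based junctions and gain matrix and motility genes. Of 21 tested junction genes, 3 were at least 4-fold higher in both lines and 1 lower, against 3.60% and 3.57% of all genes. Among those higher were *CLDN4* and the protease inhibitor *SPINT1* (bound of 20.2-fold). In EBC-1 10 of them were at least 4-fold higher than in A549 and 1 was lower, against 7.10% and 9.56% of all genes, and the median difference was 1.93. The 8 listed genes that did not pass the filter were above background in EBC-1 and not in SK-MES-1. With SK-MES-1 left out of the filter, 18 genes of the list were at least 4-fold higher in EBC-1, against 1273 of all 14605 genes. The median was then 5.11. In SK-MES-1 3 were higher and 6 lower, against 6.23% and 6.46% of all genes, and the median of -0.06 was that of all genes. *CDH1*, which encodes E-cadherin, was 13.80 in EBC-1, 2.68 in SK-MES-1 and 8.59, 8.56 and 8.58 in the A549 channels, and was not well above background in SK-MES-1. *EPCAM* was 14.13 in EBC-1, 9.80 in SK-MES-1 and 9.04, 8.98 and 9.05 in the A549 channels, and *CLDN7* was 13.46 in EBC-1, 5.25 in SK-MES-1 and 6.10, 5.83 and 5.79 in the A549 channels. *DSP*, desmoplakin, was 11.24 in EBC-1, 7.89 in SK-MES-1 and 11.42, 11.40 and 11.42 in the A549 channels, level with A549 in EBC-1 and lower in SK-MES-1. *CD24* was lower in both lines, with 9.82 in EBC-1, 8.34 in SK-MES-1 and 13.98, 13.94 and 13.98 in the A549 channels. Of 27 mesenchymal genes, 3 were at least 4-fold higher and 2 lower, against 3.60% and 3.57% of all genes. Their median difference was -1.21 for EBC-1 and 0.75 for SK-MES-1. *VIM*, vimentin, was 14.20 in EBC-1, 17.12 in SK-MES-1 and 16.39, 16.35 and 16.37 in the A549 channels, and the transcription factor *ZEB1* was 4.85 in EBC-1, 9.96 in SK-MES-1 and 10.35, 10.27 and 10.33 in the A549 channels, not well above background in EBC-1. *FN1*, fibronectin, was 2.62 in EBC-1, 8.55 in SK-MES-1 and 8.29, 8.18 and 8.28 in the A549 channels, and *COL6A1* was 12.18 in EBC-1, 16.52 in SK-MES-1 and 10.74, 10.78 and 10.81 in the A549 channels. EBC-1 was low in *VIM*, *ZEB1* and *FN1*, and SK-MES-1 was at or above A549 in *VIM* and *FN1*. In EBC-1 *FN1* was not well above background. *LOX*, lysyl oxidase, was higher in both lines, with 9.55 in EBC-1, 10.52 in SK-MES-1 and 2.75, 2.61 and 2.58 in the A549 channels, as were the matrix protein *TNC* (bound of 24.4-fold) and the transcription factor *SNAI2* (bound of 10.6-fold). *SPARC* and *COL5A2* were at least 4-fold lower in both, with 2.81 and 2.98 in EBC-1 and SK-MES-1 against 8.70, 8.55 and 8.57 in A549 and 4.31 and 5.57 in EBC-1 and SK-MES-1 against 12.78, 12.78 and 12.79 in A549. *LOX* in A549 and *SPARC* in the 2 lines were not well above background, nor was *COL5A2* in EBC-1.

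Cancer testis antigens, which are silent in most adult tissues outside the germ line, gave the widest gap between the 2 lines. Of 25 genes named on the array, 8 passed the filter and 10 were not well above background in any channel, and the median difference was -2.32 for EBC-1 and 2.98 for SK-MES-1. *MAGEA6* was 2.54 in EBC-1, 15.30 in SK-MES-1 and 10.87, 10.80 and 10.84 in the A549 channels, and *XAGE1A* was 2.72 in EBC-1, 16.78 in SK-MES-1 and 15.32, 15.30 and 15.26 in the A549 channels. Neither probe was well above background in EBC-1, and another probe of *MAGEA6* was 7.03 and 12.46 against 7.95 to 8.15. *DDX43* was the gene at least 4-fold higher in both lines (bound of 32.6-fold) and *PRAME* the gene at least 4-fold lower, against 3.60% and 3.57% of all genes. *PRAME* was not well above background in EBC-1. Other members, among them *MAGEA1* and *MAGEA4*, did not pass the filter and were above background in SK-MES-1 alone. With EBC-1 left out of the filter, 9 genes were at least 4-fold higher in SK-MES-1, against 1377 of all 15144 genes. The median was then 4.46. *CTAG2* was 6.64 in EBC-1, 14.98 in SK-MES-1 and 5.74, 5.21 and 4.95 in the A549 channels, far higher in SK-MES-1, while *PRAME* was highest in A549, with 2.60 in EBC-1, 6.06 in SK-MES-1 and 10.30, 10.35 and 10.34 in the A549 channels. The MAGEA genes are near copies, and their probes may bind each other's transcripts. Of the single genes, the 6 most opposed in each direction were named by rule. High in EBC-1 were *FER1L4*, with differences from A549 of 3.69 for EBC-1 and -3.73 for SK-MES-1, *PDZK1IP1*, with 13.03 in EBC-1, 4.91 in SK-MES-1 and 7.57, 7.49 and 7.38 in the A549 channels, *DMKN*, dermokine, with 13.82 in EBC-1, 6.26 in SK-MES-1 and 8.92, 8.85 and 8.82 in the A549 channels, and *MB*, myoglobin, with 10.87 in EBC-1, 4.79 in SK-MES-1 and 7.29, 7.36 and 7.29 in the A549 channels. *PKD1L2* was 8.95 in EBC-1, 2.75 in SK-MES-1 and 5.69, 6.05 and 5.96 in the A549 channels, and *DOK7* was 9.03 in EBC-1, 2.81 in SK-MES-1 and 6.08, 6.25 and 6.23 in the A549 channels, both not well above background in SK-MES-1. Another probe of *DOK7* was 5.75 and 5.20 against an A549 mean of 5.12 ± 0.47 (SD, n = 3). High in SK-MES-1 were *PLEKHG4*, with 6.72 in EBC-1, 13.40 in SK-MES-1 and 9.53, 9.64 and 9.53 in the A549 channels, *FZD7*, a Wnt receptor, with 6.12 in EBC-1, 10.78 in SK-MES-1 and 8.44, 8.38 and 8.47 in the A549 channels, *IGFBP7*, with 6.82 in EBC-1, 15.04 in SK-MES-1 and 12.80, 12.76 and 12.78 in the A549 channels, and the collagen receptor *MRC2*, with 9.49 in EBC-1, 15.59 in SK-MES-1 and 13.41, 13.43 and 13.35 in the A549 channels. *PRDM13* was 2.60 in EBC-1, 11.09 in SK-MES-1 and 8.39, 8.38 and 8.48 in the A549 channels, not well above background in EBC-1, and its other probe was 6.62 and 7.60 against 6.86 to 7.18. *MAGEA6*, above, was the last of the 12.

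Most markers of leukocytes, endothelium and fibroblasts were not detected. Of 19 named on the array, 10 were not well above background in any channel, among them *PECAM1*, *VWF*, *DCN* and *LUM*, and 0 of the 7 tested differed by 4-fold in both lines. There were 6 that were above background in both lines, *PTPRC*, *CD14*, *CD79A*, *CDH5*, *PDGFRB* and *COL1A1*. *CD79A*, of B cells, was bright in every channel, with 10.63 in EBC-1, 10.78 in SK-MES-1 and 10.63, 10.51 and 10.56 in the A549 channels. *COL1A1*, a fibrillar collagen that is also on the mesenchymal list, was 7.94 in EBC-1, 12.07 in SK-MES-1 and 7.18, 7.55 and 7.51 in the A549 channels, far higher in SK-MES-1, and *CD14* was 5.95 in EBC-1, 7.47 in SK-MES-1 and 9.39, 9.33 and 9.40 in the A549 channels, lower in both lines. Of 18 common reference genes, 0 differed by 4-fold in both lines, and their median difference was 0.14. *RPLP0* was 17.57 in EBC-1, 17.51 in SK-MES-1 and 17.51, 17.50 and 17.50 in the A549 channels and *GAPDH* was 17.24 in EBC-1, 16.53 in SK-MES-1 and 16.55, 16.52 and 16.53 in the A549 channels, both within 1 log2 unit of A549, while *B2M* was the reference gene that differed most.

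**Figure D5:**
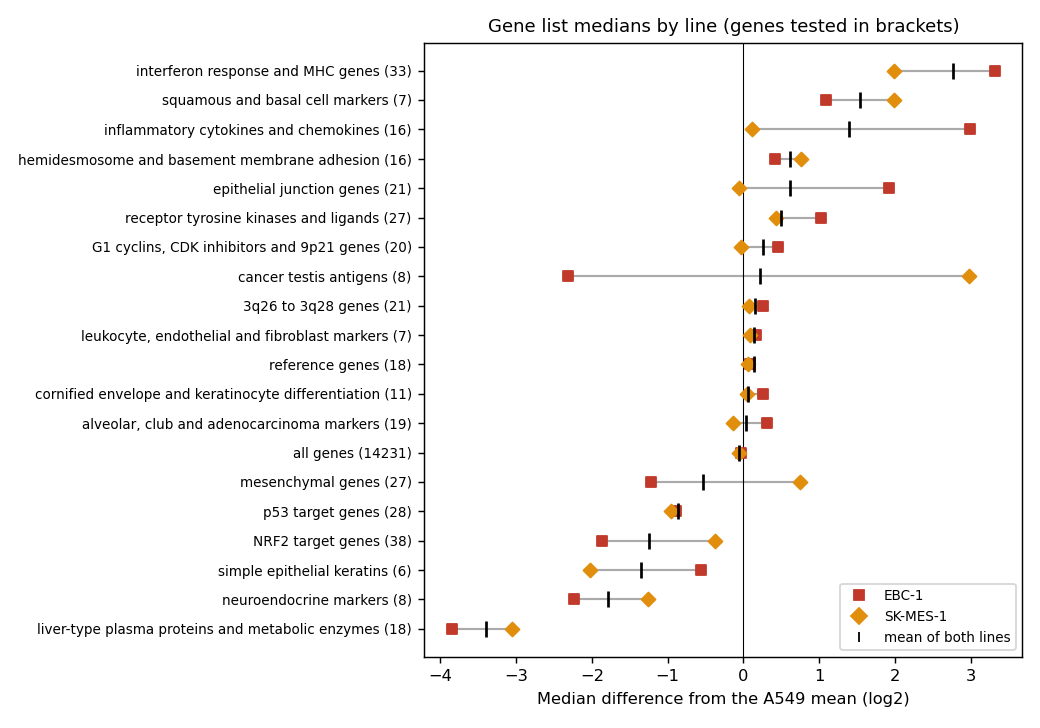
Median log2 difference from the A549 mean (horizontal axis) over the tested genes of each list, in EBC-1, in SK-MES-1 and for the mean of both lines, with the number of genes tested in brackets. For the mean of both lines, interferon response and MHC genes are highest (2.77) and liver-type genes lowest (-3.40), and the cancer testis antigens lie on opposite sides of 0 (-2.32 in EBC-1, 2.98 in SK-MES-1).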

How the data were processed

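Control RNA of EBC-1 and SK-MES-1 (1 channel each) and of unedited A549 (3 channels) was measured in Cy3 on 2-colour Agilent arrays of 1 design, all on 1 slide, with no dye swap. Per the file headers, the deposited intensity values came from Agilent Feature Extraction 12.1.1.1. The processed signal had been background-subtracted, detrended and dye-normalized by linear and lowess fits against the treated RNA of the same array by the authors' software run, so a control value depends in part on its partner. The deposited log ratios and their p-values, and the authors' series-wide value table, hold treated against control and were not used.

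Control spots and spots marked as outliers (50 to 80 per channel) were left out, and log2 signals were quantile normalized over 60901 spots per channel. Of 58201 probes, 31104 could be named for 22439 genes through their accession in RefSeq GRCh38.p14, used for names and promoter sequences only. A probe was kept when it was well above background in all channels of at least 1 side (24991 probes, 14231 genes). A gene is represented by its brightest such probe. Among 3731 genes with several probes the median range of their differences was 0.32, and in 11 genes probes differed by at least 2-fold in opposite directions.

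The test was limma 3.58.1 in R 4.3.3 over 3 columns (EBC-1, SK-MES-1 and the mean of A549), two-sided, with Benjamini-Hochberg adjustment over all probes at 0.05. It leaves 1 residual degree of freedom, and p-values measure only the spread between these lines or channels. SE values come from this fit. Where a probe was not well above background in all channels of a side, the fold is given as at least the bright side's mean over the dim side's mean of, per channel, the higher of the probe's own value and the lowest value among probes well above background. Figures were drawn with matplotlib 3.10.9. The fits were checked on simulated data. With arrays, their number limits the precision.

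Genes are named by this rule: the 12 highest and the 12 lowest of those well above background in all 5 channels at any probe, the 8 with the highest bound on each side, the 6 most opposed between the lines in each direction, and members of 19 gene lists. Genes of the Y chromosome and *XIST* were left out, and some other genes that meet the rule are not reported here by name. The members and the lists were chosen with earlier results of these data known. The alternatives were other scalings, signals, filters, fits and probe summaries, the Cy5 channels, and each channel left out. The normexp correction with an offset of 50 used the median spot signal, since a mean spot signal was not used here.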

Additional observations from a re-analysis of the deposited data

Results flagged for a closer look

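In 5 gene lists the median difference from A549 had opposite signs for the 2 lines, though not at every gene, and 12 single genes had opposite signs at their brightest probe. The difference between the lines was not tested, since each line had 1 channel, and both differences share the A549 channels. The single genes were picked for this pattern.

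Taken as EBC-1 minus SK-MES-1, the medians differed by -5.29 (log2) for the cancer testis antigens, by -1.96 for the mesenchymal genes and by 1.99 for the epithelial junction genes. They differed by 0.45 for the alveolar, club and adenocarcinoma markers and by 0.49 for the G1 genes, lists whose medians were near 0 in at least one line. Genes higher in EBC-1 were *FER1L4*, with a log2 difference of EBC-1 minus SK-MES-1 of 7.43, *DMKN* with 7.56, *PDZK1IP1* with 8.11 and *MB*, which encodes myoglobin, with 6.09. Also higher were *PKD1L2* with 6.20 and *DOK7*, an activator of the muscle kinase MuSK, with 6.23, both at probes not well above background in SK-MES-1, so that these sizes are not exact. Another probe of *DOK7* was not below the A549 mean in either line, and another of *PKD1L2* was brighter in SK-MES-1, at 5.49, and not well above background in EBC-1 or A549. Genes higher in SK-MES-1 were *PLEKHG4* with -6.67, *FZD7* with -4.66, *IGFBP7* with -8.22 and *MRC2* with -6.10. *MAGEA6*, with -12.76, and *PRDM13*, a transcription factor, with -8.49, were not well above background in EBC-1, so that these sizes are not exact either. The other probe of *PRDM13*, above background in all 5 channels, was 6.62 for EBC-1 and 7.60 for SK-MES-1.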

How the results depend on the processing

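The counts of genes at least 4-fold higher or lower in both lines (513 and 508) stayed within 1.5 times under the other scalings, all 8 arrays, the background-subtracted signal, no filter, the mean over probes, marked spots kept and the Cy5 channels (479 to 592 higher and 479 to 547 lower). They were 92 and 101 with normexp and an offset of 50, and 211 and 121 when a probe had to be well above background in all 5 channels, which leaves out genes that are dim on 1 side. Subtracting each channel's median moved the median over all genes from -0.06 to -0.20, and the share of higher among these genes lay between 46.7% and 52.7% over the scalings and signals. Of 1455 values of 101 such named or listed genes, 1454 kept their sign. The exception was *LINC00173*, at 0.16 when all 5 channels had to be above background, where another of its probes is used.

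The limma count of 0 probes over lines became 122 higher and 214 lower with the line as a random block, and 3043 and 3970 with 5 separate channels. Leaving out 1 channel in turn gave 0 to 9805 probes higher and 0 to 10061 lower, and 513 to 1377 genes at least 4-fold higher and 509 to 1361 lower. Without EBC-1 these were 9100 and 9857 probes and 1377 and 922 genes. Without SK-MES-1 they were 9805 and 10061 probes and 1273 and 1361 genes. In both cases the lone line was assumed to vary like the A549 channels, and a gene had to pass in 1 line only. Without any A549 channel the counts stayed at 0 probes, 513 to 519 genes higher and 509 to 512 lower. Of 285 recomputed list medians 44 moved by more than the spread, and 13 changed sign, in 8 of 19 lists. These were the liver-type genes with all 5 channels above background (0.47), the mesenchymal (0.81) and junction genes (-0.06) without EBC-1, the cancer testis antigens without SK-MES-1 (-2.32), the G1 genes in Cy5 (-0.26), and lists near 0, the alveolar, cornified and leukocyte lists (down to -0.15, -0.03 and -0.08 with the median of each channel subtracted). Of 570 list counts 88 moved by over 1.5 times. No paired analysis was possible because the replicate numbers of EBC-1, SK-MES-1 and A549 do not mark a shared culture or array.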
